A study of Danio rerio with 20 samples.

Results

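Glutamate is the main excitatory transmitter of the vertebrate brain, and the genes described here encode its receptors and the transporters that load it into synaptic vesicles. The family was chosen by name: every gene whose symbol begins with gria, grin, grik, grid or grm and a digit, and the vesicular transporters slc17a6, slc17a7 and slc17a8 with their copies. These rules found 48 of the 22851 gene symbols in the deposited table of zebrafish larvae, and all 48 passed the filter on low values that left 19289 genes for testing. They comprise 8 AMPA receptor subunits, 12 NMDA receptor subunits, 6 kainate receptor subunits, 3 delta receptors, 12 metabotropic receptors and 5 vesicular transporters. The remaining 2, grid2ipa and grid2ipb, match the rule by spelling but encode proteins that bind the delta receptor, so 46 of the 48 are receptors or transporters. The kainate subunits GRIK2 and GRIK3 carry upper-case symbols in the table and were matched without regard to case.

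Vesicular glutamate transporters fill synaptic vesicles before release. AMPA receptors carry most of the fast current, NMDA receptors admit calcium when glutamate and a co-agonist are both bound, and kainate receptors tune release and excitability. Delta receptors organise synapses with secreted cerebellins and are not opened by glutamate. Metabotropic receptors act through G proteins: group I releases calcium from internal stores, while groups II and III lower cyclic AMP and often damp release. Zebrafish keep many of these genes as paired copies, named a and b, from a genome duplication in the teleost lineage.

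Larvae of the AB wild-type strain were exposed from 6 to 96 hours post fertilization to a mixture of persistent organic pollutants (POP) or to perfluorooctanesulfonic acid (PFOS) alone, and RNA was taken from whole larvae. The mixture was scaled to blood levels of a Scandinavian population, at 10 times (POP10) and 70 times (POP70) those levels, and PFOS10 and PFOS70 held PFOS at the amounts it has in the respective mixture. Control larvae received the solvent, 0.1% dimethyl sulfoxide, whose level the labels give for Control only. Each of the 5 groups had 4 samples of 10 pooled larvae. Nothing in the labels ties the pools to separate clutches, and p-values refer to the scatter among pools, which may be partly technical.

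The authors deposited a log2 value per transcript and library that corresponds to reads scaled to a common total (RPM), with 8572286 to 11243535 reads behind each of the 20 libraries. The PFOS10 libraries stood apart from the others: on the first principal component, which held 39.6% of the variance, they lay at 49.4 to 61.5, against -45.0 to 21.9 for the other 16. In 3 of the 4 PFOS10 libraries the median gene of the family lay 0.187 to 0.310 above the Control mean on the log2 scale, and in PFOS10 replicate 4 it lay at -0.204. Every comparison with PFOS10 is therefore also given without that library where its count depends on it. Markers of neurons, retina and liver moved with the same groups and are given after the receptor classes. Because whole larvae were measured, fewer cells of a type and less RNA per cell cannot be told apart.

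The 48 genes differed widely in depth. The GluN1 subunit gene grin1b, an obligatory part of every NMDA receptor, had 3689 to 9982 reads per library, and slc17a8 had 8 to 50. Levels are per transcript and not per length, so they compare libraries for 1 gene and not genes with each other. The scatter within groups was smallest for grik1a, with a pooled SD of 0.13 on the log2 scale, and largest for grm3, at 0.42, against a median of 0.19 over all genes tested. Reads of gria2b, grin2aa and grm2b may include reads of genes that overlap them on the other strand. The span of the gria4a transcripts overlaps 2 genes on its own strand, alp3 and zgc:165508, whose reads it may likewise include. Neither the strand setting nor the counting of reads that match both copies of a pair is stated in the sources.

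How many members differed depended on the comparison. Against Control, 0 of the 48 passed an adjusted p of 0.05 in POP70, POP10 or PFOS70 (limma, Benjamini-Hochberg over all 19289 genes). Over all genes these comparisons called 0.0156%, 0% and 0%. PFOS10 against Control called 2 members, against 8.25% of all genes. Between the exposed groups, POP10 against PFOS10 called 19 members (39.6% of the family, 31.4% of all genes) and PFOS70 against PFOS10 called 15 (31.2%, against 34.4% of all genes). These shares of the family lie near those of all genes, while the directions differ at the deposited scaling. In POP10 against PFOS10, 18 members were lower and 1 higher, while over all genes 11.6% were lower and 19.8% higher. In PFOS70 against PFOS10, 14 were lower and 1 higher, while over all genes 10.8% were lower and 23.6% higher. The single higher member was slc17a8 in each. Shares of all genes called higher or lower are for the deposited scaling, here and below, unless stated. With libraries shifted to equal medians, 3019 of all genes were called higher and 4199 lower in POP10 against PFOS10. In PFOS70 against PFOS10 these were 3466 and 4933, and with quantile normalization lower calls also outnumbered higher ones in both. These comparisons share the PFOS10 libraries, and those with Control share the Control libraries, so none of them is an independent repeat of another.

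**Figure D1:**
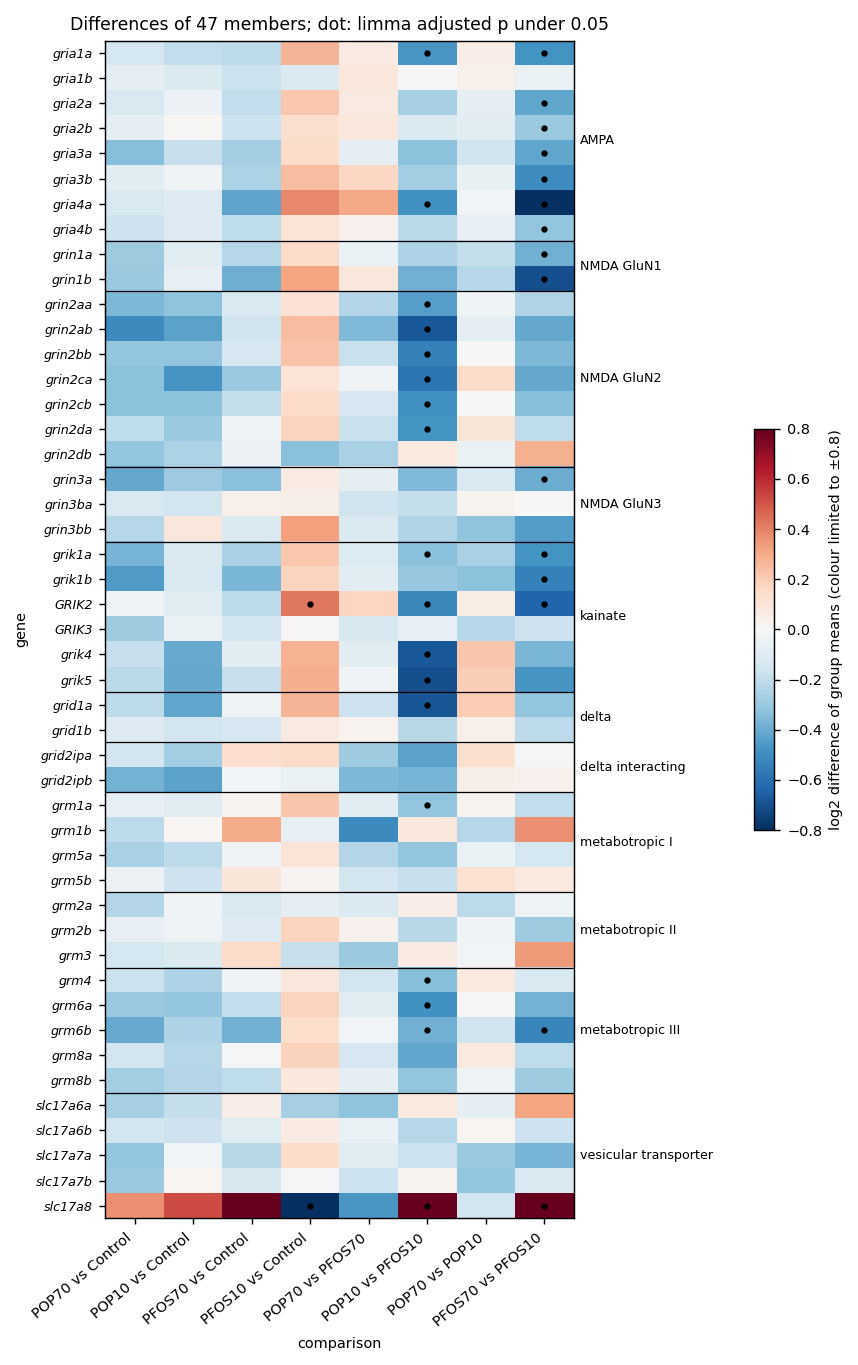
Differences of group means (log2 scale, colour limited to 0.8 in each direction) for 47 of the 48 genes in 8 comparisons, ordered by receptor class; a dot marks a limma adjusted p under 0.05. The dots stand in the columns that involve PFOS10, 2 in PFOS10 vs Control, 18 in POP10 vs PFOS10 and 15 in PFOS70 vs PFOS10.

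In the map of differences the AMPA rows are darkest in PFOS70 vs PFOS10 (median -0.42, against -0.27 in POP10 vs PFOS10) and the GluN2 rows in POP10 vs PFOS10 (median -0.48, against -0.34). It also shows the pale blue of the POP70 vs Control column, where 47 of all 48 genes lay below 0.

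Of the vesicular transporters, slc17a8 varied most between groups. This gene (chromosome 18, 15616167 to 15635407 on GRCz11, the build in the submitters' processing notes) encodes Vglut3, the transporter on which zebrafish hair cells of the ear and lateral line depend. In log2 RPM it stood at 0.94, 1.59, 1.20 and 1.24 in Control, at 0.04, -0.34, 0.58 and 0.48 in PFOS10, and at 1.77, 2.38, 2.00 and 2.15 in PFOS70. It stood at 1.64, 2.01, 1.87 and 1.54 in POP10 and at 1.56, 2.14, 1.99 and 0.74 in POP70. All PFOS10 libraries lay below every other library, all PFOS70 libraries lay above all Control libraries, and POP70 replicate 4 lay below Control. In reads, PFOS10 had 8 to 15 per library and PFOS70 had 36 to 50.

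The slc17a8 level fell in PFOS10 against Control by 1.05 on the log2 scale (SE 0.27, limma adjusted p = 0.0245). This call did not hold in all alternatives: it passed 13 of 20, with adjusted p-values up to 0.112. It rose in PFOS70 against PFOS10 by 1.88 (SE 0.27, adjusted p = 0.000082), which is 3.69-fold. It rose in POP10 against PFOS10 by 1.57 (SE 0.27, adjusted p = 0.000623), which is 2.97-fold. Both calls passed all 20 alternatives. PFOS70 against Control gave a difference of 0.83 with non-overlapping groups and an adjusted p of 0.271.

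The other 4 transporter genes passed in no comparison. Vglut2, encoded by slc17a6a and slc17a6b, serves most excitatory neurons of the hindbrain, midbrain and spinal cord, and Vglut1 is encoded by slc17a7a and slc17a7b. Levels of slc17a6b were 7.87, 7.87, 8.01 and 8.0 log2 RPM in Control, 8.12, 8.26, 7.98 and 7.66 in PFOS10 and 7.72, 7.86, 7.91 and 7.86 in PFOS70. POP10, at 7.70 to 7.81, lay below every Control library, and the groups of this gene overlapped otherwise. For slc17a6a the difference between PFOS70 and PFOS10 was 0.32 (95% interval -0.04 to 0.68). For slc17a7a it was -0.37 (-0.72 to -0.02, adjusted p = 0.0982), and for slc17a7b -0.12 (-0.44 to 0.21).

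All 8 AMPA receptor subunits lay below 0 in PFOS70 against PFOS10, and 7 of them were called lower, against 10.8% of all genes. Largest was the difference of gria4a (chromosome 15, 44499187 to 44512461), a GluA4 copy. It stood at 6.33, 6.49, 6.52 and 5.90 log2 RPM in PFOS10, at 5.21, 5.5, 5.64 and 5.65 in PFOS70, at 5.87, 5.86, 5.73 and 5.84 in POP10, at 5.58, 5.93, 6.04 and 5.67 in POP70 and at 5.95, 6.07, 5.97 and 5.71 in Control. Each PFOS10 library lay above each PFOS70 and POP10 library, and each PFOS70 library lay below each Control library. PFOS10 replicate 4 was the lowest of its group and lay within the Control range. The gene fell by 0.81 in PFOS70 against PFOS10 (SE 0.13, limma adjusted p = 0.000175) and by 0.49 in POP10 against PFOS10 (SE 0.13, adjusted p = 0.00909). Its other tested transcript was also called in both, at -0.48 and -0.42, so the rank as largest rests on the transcript used.

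A GluA1 copy, gria1a (chromosome 14, 34125855 to 34276574), had 7.29, 7.19, 7.12 and 6.80 log2 RPM in PFOS10, 6.45, 6.62, 6.79 and 6.64 in PFOS70 and 6.70, 6.62, 6.56 and 6.66 in POP10. In Control it had 6.75, 6.75, 7.10 and 6.73, and in POP70 6.58, 6.80, 6.75 and 6.63. PFOS10 lay above PFOS70 and POP10 without overlap, though PFOS10 replicate 4 and PFOS70 replicate 3 almost met. Its level fell by 0.48 in PFOS70 (SE 0.10, adjusted p = 0.00122) and by 0.47 in POP10 (SE 0.10, adjusted p = 0.00244), each against PFOS10.

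The GluA2 copies matter for ion selectivity, since edited GluA2 keeps calcium out of AMPA channels. Levels of gria2a were 8.14, 8.11, 8.06 and 7.67 log2 RPM in PFOS10 and 7.41, 7.44, 7.79 and 7.66 in PFOS70. The groups overlapped through PFOS10 replicate 4, and gria2a fell by 0.42 (adjusted p = 0.00815). The other calls in this contrast were gria3b (-0.50, adjusted p = 0.00582), gria3a (-0.42, adjusted p = 0.025), gria4b (-0.32, adjusted p = 0.0439) and gria2b (-0.30, adjusted p = 0.0434). Of the 7 AMPA calls, gria1a, gria2a and gria4a passed all 20 alternatives, while gria3a passed 15, and gria2b and gria4b 10 each. For gria3b the call was lost, with an adjusted p of 0.394, when the lowest-numbered transcript stood for the gene. The exception was gria1b, at -0.06 (95% interval -0.44 to 0.33). The AMPA calls in POP10 against PFOS10 were gria1a and gria4a alone, with all 8 differences below 0 (45.5% over all genes).

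**Figure D2:**
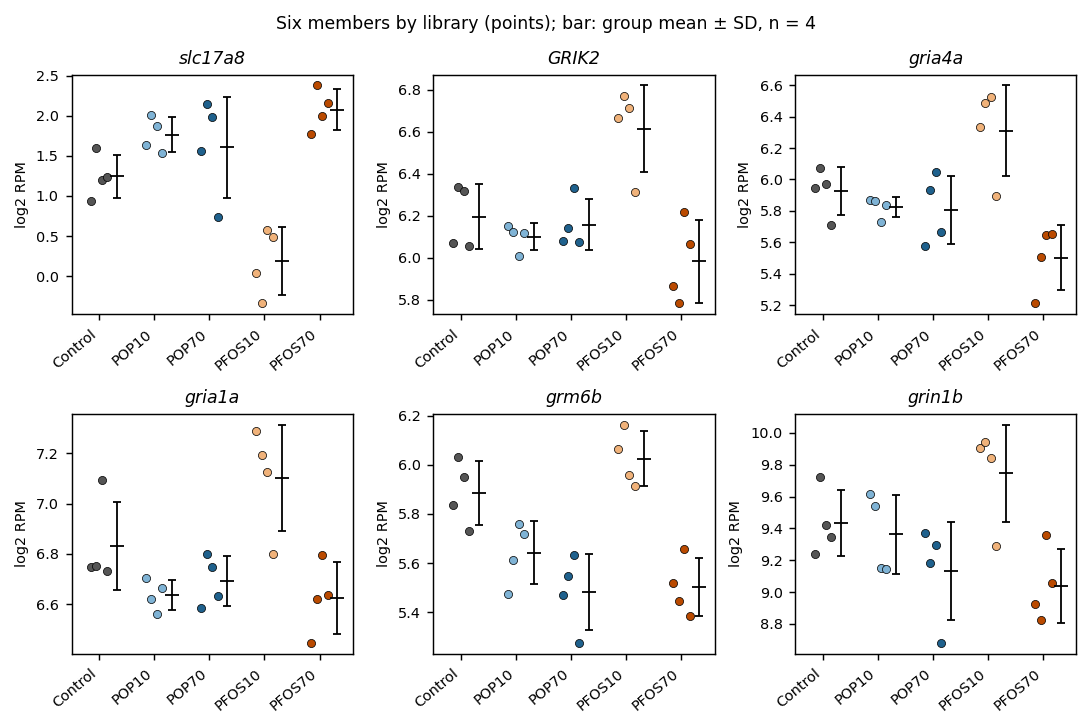
Levels (log2 RPM, linear axes that differ between panels and do not start at 0) of slc17a8, GRIK2, gria4a, gria1a, grm6b and grin1b in the 20 libraries; points are libraries and bars the group mean ± SD (n = 4). For slc17a8 the 4 PFOS10 libraries lie lowest, at -0.34 to 0.58, and for each of the other genes a PFOS10 library lies highest.

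The panels of levels by library show that the PFOS10 mean was the lowest of the 5 for slc17a8 and the highest for the other genes, and that PFOS10 replicate 4 lay lowest in its group for all but slc17a8. For grin1b, PFOS10 replicate 4 lay at 9.29 against 9.84 to 9.95 in the other PFOS10 libraries.

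NMDA receptors combine GluN1, which binds the co-agonist, with GluN2 subunits, which bind glutamate and set the channel's kinetics. Levels of grin1b (chromosome 5, 29597645 to 29643930) were 9.91, 9.95, 9.84 and 9.29 log2 RPM in PFOS10 and 8.92, 8.83, 9.36 and 9.06 in PFOS70. In Control they were 9.24, 9.72, 9.42 and 9.34, in POP10 9.62, 9.54, 9.15 and 9.15, and in POP70 9.37, 9.18, 9.29 and 8.68. PFOS10 and PFOS70 overlapped through PFOS10 replicate 4 and PFOS70 replicate 3. Its level fell by 0.70 in PFOS70 against PFOS10 (SE 0.17, limma adjusted p = 0.00283), a call that passed all 20 alternatives. The other copy, grin1a, fell by 0.39 (SE 0.12, adjusted p = 0.0152). It passed 15 of 20, and with its lowest-numbered transcript the adjusted p was 0.588. Neither copy passed in POP10 against PFOS10, at -0.38 for grin1b and -0.25 for grin1a.

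The GluN2 genes gave the reverse count. Of 7 genes, 6 fell in POP10 against PFOS10, where 11.6% of all genes were called lower. In PFOS70 against PFOS10, 0 of 7 passed, while 10.8% of all genes were called lower. There 6 of 7 nevertheless lay below 0, against 45.1% of all genes. Levels of grin2ab, a GluN2A copy (chromosome 1, 8763429 to 8928841), were 6.68, 6.64, 6.54 and 6.47 log2 RPM in PFOS10 and 5.54, 5.76, 6.09 and 6.24 in POP10. They were 6.35, 6.17, 6.40 and 6.41 in Control, 6.16, 6.12, 6.27 and 6.15 in PFOS70, and 5.17, 6.17, 6.03 and 5.93 in POP70. All PFOS10 libraries lay above all others for this gene, and POP10 replicates 1 and 2 and POP70 replicate 1 were the lowest. Its level fell by 0.68 in POP10 against PFOS10 (SE 0.16, adjusted p = 0.00447).

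The other GluN2A copy, grin2aa, had 6.71, 6.76, 6.62 and 6.31 log2 RPM in PFOS10 and 6.08, 6.12, 6.20 and 6.26 in POP10, without overlap. It fell by 0.44 (SE 0.12, adjusted p = 0.00861). Of its 2 tested transcripts only this 1 was called, and the other went the opposite way, at 0.29. The remaining calls were grin2ca (-0.59), grin2bb, the GluN2B gene (-0.54), grin2cb (-0.48) and grin2da (-0.48), with adjusted p-values of 0.0111 to 0.0151 and overlapping groups. Of the 20 alternatives, grin2cb passed all, grin2ca 19, and grin2bb and grin2da 18 each. For grin2da the call was lost with its lowest-numbered transcript and without POP10 replicate 2. The exception was grin2db, at 0.08 (95% interval -0.24 to 0.40). Whether GluN2 genes differed more in the POP10 comparison than in the PFOS70 comparison is the difference between PFOS70 and POP10, for which no test was run. Of the GluN3 genes, whose product makes NMDA receptors less permeable to calcium, grin3a fell in PFOS70 against PFOS10 by 0.40 (adjusted p = 0.0388). That call passed 14 of 20 alternatives and 3 of the 8 with a library left out, with adjusted p-values up to 0.137. The genes grin3ba and grin3bb passed nowhere.

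Kainate receptors of the GluK1 to GluK3 kind form channels by themselves, while GluK4 and GluK5 need a partner among them. GRIK2, the GluK2 gene (chromosome 16, 1803462 to 2105556), was the only receptor gene called against Control. Its levels were 6.67, 6.77, 6.71 and 6.31 log2 RPM in PFOS10 and 6.07, 6.34, 6.32 and 6.06 in Control. They were 5.86, 5.78, 6.22 and 6.07 in PFOS70, 6.15, 6.12, 6.01 and 6.12 in POP10 and 6.08, 6.14, 6.33 and 6.07 in POP70. PFOS10 replicates 1 to 3 lay above all other libraries, and replicate 4 lay within the Control range and above all PFOS70 and POP10 libraries.

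In PFOS10 against Control GRIK2 rose by 0.42 (SE 0.11, limma adjusted p = 0.0219), which passed 14 of 20 alternatives with adjusted p-values up to 0.0904. It fell by 0.63 in PFOS70 against PFOS10 (SE 0.11, adjusted p = 0.000226) and by 0.52 in POP10 against PFOS10 (SE 0.11, adjusted p = 0.00188), and both calls passed all 20. Its 2 tested transcripts stood at -0.63 and -0.63 in the former contrast and -0.52 and -0.52 in the latter. Transcripts of a gene may share reads, so such likeness is no separate support. GRIK3, the GluK3 gene, passed nowhere, with -0.17 (95% interval -0.44 to 0.11) in PFOS70 against PFOS10.

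The partner subunit gene grik4 had 5.18, 5.23, 5.28 and 4.86 log2 RPM in PFOS10 and 4.28, 4.22, 4.67 and 4.67 in POP10, without overlap. In Control it had 4.77, 4.80, 5.11 and 4.77, above every POP10 library. It fell by 0.68 in POP10 against PFOS10 (SE 0.14, adjusted p = 0.00233), and grik5 fell by 0.70 (SE 0.19, adjusted p = 0.0102). In PFOS70 against PFOS10 neither passed, at -0.37 for grik4 and -0.47 for grik5. The GluK1 copy grik1a, at 4.69, 4.74, 4.53 and 4.59 in PFOS10 and 4.04, 4.18, 4.32 and 4.09 in PFOS70, lay lower in every PFOS70 library. It fell by 0.48 (SE 0.10, adjusted p = 0.0011), and by 0.33 in POP10 against PFOS10 (SE 0.10, adjusted p = 0.0155). The other copy, grik1b, fell by 0.54 in PFOS70 against PFOS10 (SE 0.18, adjusted p = 0.0246). That call passed 14 of 20 alternatives and 2 of the 8 with a library left out, with adjusted p-values up to 0.0809.

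Of the GluD1 copies, grid1a fell in POP10 against PFOS10, and grid1b passed in no comparison, at -0.22 there (95% interval -0.50 to 0.07). Levels of grid1a (chromosome 17, 25955003 to 26363402) were 4.86, 5.12, 5.15 and 4.87 log2 RPM in PFOS10 and 4.13, 4.29, 4.38 and 4.42 in POP10. In Control they were 4.66, 4.62, 4.97 and 4.63, also above every POP10 library. Its level fell by 0.69 (SE 0.13, adjusted p = 0.00119). Its 3 tested transcripts, which may share reads, were all called, at -0.82 to -0.69. The interacting proteins grid2ipa and grid2ipb passed in no comparison.

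Among metabotropic receptors, grm6b was the one called in both contrasts with PFOS10. It encodes a copy of mGlu6, the receptor with which ON bipolar cells of the retina sense photoreceptor glutamate (chromosome 11, 25634041 to 25679133). Levels were 6.06, 6.16, 5.96 and 5.91 log2 RPM in PFOS10, 5.84, 6.03, 5.95 and 5.73 in Control, and 5.52, 5.45, 5.66 and 5.38 in PFOS70. They were 5.47, 5.61, 5.76 and 5.72 in POP10 and 5.47, 5.55, 5.64 and 5.28 in POP70. Every PFOS70 and POP70 library lay below every Control library, and POP10 overlapped with Control. Its level fell by 0.52 in PFOS70 against PFOS10 (SE 0.09, limma adjusted p = 0.000349) and by 0.38 in POP10 against PFOS10 (SE 0.09, adjusted p = 0.0049). All 3 of its tested transcripts, which may share reads, were called in each.

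Against Control, grm6b was at -0.40 in POP70 (limma adjusted p = 0.197) and at -0.38 in PFOS70 (adjusted p = 0.19), and neither passed. No other member had a smaller p in these comparisons. The other mGlu6 copy, grm6a, fell by 0.49 in POP10 against PFOS10 (adjusted p = 0.0169). So did grm4, by 0.34 (adjusted p = 0.0254), and the group I gene grm1a, by 0.31 (adjusted p = 0.0185). These 3 passed 18, 14 and 16 of 20 alternatives. The group II genes grm2a, grm2b and grm3, the group I genes grm1b, grm5a and grm5b, and the group III genes grm8a and grm8b passed in no comparison. By counts, metabotropic genes were called lower in 4 of 12 cases in POP10 against PFOS10, against 11.6% of all genes. In PFOS70 against PFOS10 it was 1 of 12, no larger a share than the 10.8% of all genes. Ionotropic subunits were called lower in 14 and 13 of 29, and the difference between the classes was not tested.

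Relative to Control, most members lay below 0 in POP70, POP10 and PFOS70, where none passed, and above 0 in PFOS10, where GRIK2 and slc17a8 passed. In POP70, 47 of 48 members lay below 0 against 49.8% of all genes, with a median of -0.21 against 0.0009. Groups did not overlap for 9 members, all lower, against 3.53% of all genes. In that direction 13 members had an unadjusted p under 0.05, against 6.21% of all genes. These 9 were grin2ab, grik1b, grin3a, grm6b, grik1a, grin2aa, gria3a, slc17a7a and grm6a, with differences of -0.51 to -0.30. Largest in size was grin2ab at -0.51 (95% interval -0.85 to -0.17, adjusted p = 0.381). In POP10, 43 of 48 lay below 0, against 47.2% of all genes, with a median of -0.16, and 6 did not overlap with Control, all lower, against 3.1% of all genes. These were grid1a, grik4, grin2aa, grm4, gria1a and slc17a6b. In PFOS70, 39 of 48 lay below 0, against 44.5% of all genes, with a median of -0.13. There the non-overlapping genes were gria4a (-0.42) and grm6b (-0.38), lower, against 1.98% of all genes, and slc17a8, higher, against 5.13%. In PFOS10, 39 of 48 lay above 0, against 45.6% of all genes, with a median of 0.14. Genes of a family can vary together, so these counts are not numbers of independent observations, and they are given as a description.

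The neuron markers moved alike in each of these comparisons. Of 18 neuron markers, all 18 lay below 0 in POP70 and in POP10 against Control, 16 in PFOS70 and 3 in PFOS10. Their summed level was 9214 to 10751 RPM in Control, 7204 to 9111 in POP70, 8027 to 8926 in POP10, 8147 to 9572 in PFOS70 and 9238 to 12581 in PFOS10. By this sum both mixture groups lay below Control without overlap, POP70 narrowly. By the median deviation of the 18 markers per library, POP70 reached -0.050 and overlapped with Control, which began at -0.063. POP10 reached -0.111 and did not overlap. In each of the 4 comparisons with Control, 0 of the 18 were called. Their part in the receptor results was not tested.

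Between the mixture and PFOS at the higher level, 0 of the 48 genes passed, against 0.181% of all genes, and the groups overlapped for all 48, while 5.74% of all genes had groups that did not overlap. At an unadjusted p under 0.05, 3 were lower in POP70, against 7.19% of all genes (grm1b -0.51, grid2ipb -0.36 and grin2ab -0.35), and 1 higher, against 3.87% (gria4a 0.30). The 95% intervals of 47 of 48 lay within 1 log2 unit of 0. POP70 against POP10 likewise gave 0 calls, against 0% of all genes. There grik1a (-0.26) and slc17a7b (-0.31) were lower without overlap, against 1.18% of all genes, and all 48 intervals lay between -0.72 and 0.60. An absence of calls does not show equal levels, and 35 of the 48 intervals in POP70 against POP10 excluded a difference of 0.5 in either direction.

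The level effect of the mixture was then set against that of PFOS alone, as the difference (POP70 less POP10) less (PFOS70 less PFOS10). This test of the difference called 4 of 48 members, against 15.9% of all genes. Of these, 3 were higher, against 2.64% of all genes, and 1 lower, against 13.2%. For slc17a8 the effect was -0.15 in the mixture and 1.88 in PFOS alone, a difference of -2.04 (SE 0.39, limma adjusted p = 0.00329). For gria4a it was -0.02 and -0.81, a difference of 0.79 (SE 0.19, adjusted p = 0.00868). For GRIK2 it was 0.06 and -0.63, a difference of 0.69 (SE 0.15, adjusted p = 0.00587). For gria1a it was 0.05 and -0.48, a difference of 0.53 (SE 0.14, adjusted p = 0.0168). All 4 calls passed all 28 alternatives, with limma adjusted p-values up to 0.0498 for gria4a and 0.0435 for gria1a. Only 1 of the 2 tested transcripts of gria4a was called. The next genes were grik4 (0.59, adjusted p = 0.0551), grid1a (0.52, adjusted p = 0.0627) and grm6b (0.36, adjusted p = 0.0641), which did not pass.

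**Figure D3:**
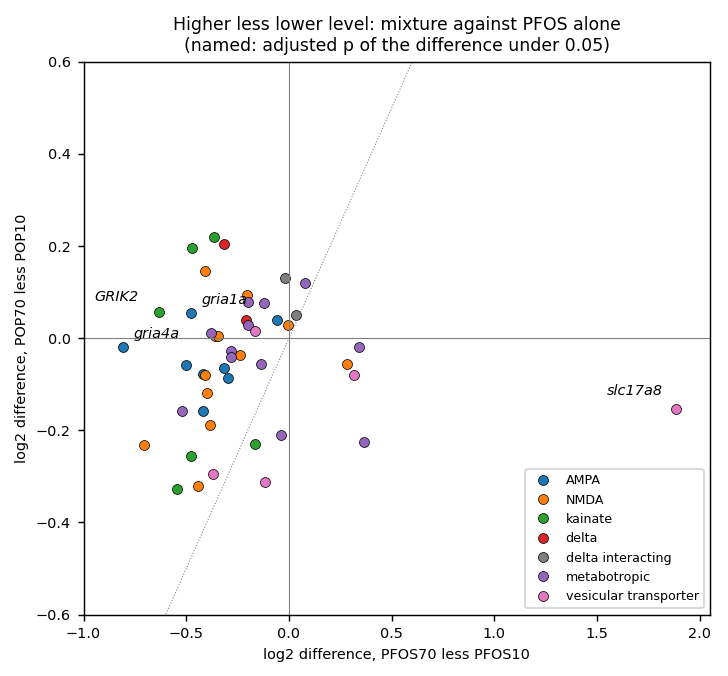
Difference between the higher and the lower level for PFOS alone (horizontal) and for the mixture (vertical), both on the log2 scale with unequal axis ranges, for 47 of the 48 genes coloured by class; the dotted line marks equal differences. Most genes lie left of the dotted line, and the 4 named ones, slc17a8 and the receptor genes gria4a, GRIK2 and gria1a, passed the test of the difference.

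The scatter of level effects uses no library on both axes. Along the mixture axis the 47 genes spread from -0.33 to 0.22, and along the PFOS axis from -0.81 to 1.88. Of all members, 40 of 48 had a difference above 0, against 44.3% of all genes. Since the PFOS10 libraries enter this difference, it rests on the group that stood apart. Without PFOS10 replicate 4 it called 11 members, without PFOS70 replicate 3 it called 7 and without POP70 replicate 1 it called 9. The shares of all genes called in these settings are not given, so these counts show dependence on libraries and no trait of the family.

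Counts in the simple comparisons with PFOS10 also depended on single libraries. Here too the shares of all genes in these settings are not given, so the counts show no trait of the family. Without PFOS10 replicate 4, members called rose from 19 to 33 in POP10 against PFOS10, from 15 to 27 in PFOS70 against PFOS10 and from 2 to 6 in PFOS10 against Control. Without POP10 replicate 2 the first count was 12, and without PFOS10 replicate 2 or PFOS70 replicate 1 the second was 9. For PFOS10 against Control the count was 0 without Control replicate 4, PFOS10 replicate 1 or PFOS10 replicate 2, and 1 without Control replicate 1, Control replicate 2 or PFOS10 replicate 3.

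The copies of a pair mostly had the same sign. Of 19 a and b pairs, 14 did so in POP10 against PFOS10 and 14 in PFOS70 against PFOS10. In each of these contrasts 41 of all 48 members lay below 0. Most pairs would therefore share a sign in any case, and the counts do not show a tie between copies. In the latter both copies were called for gria2, gria3, gria4, grin1 and grik1, and 1 copy for gria1 and grm6. In the former both were called for grin2a, grin2c and grm6, and 1 copy for 6 pairs. The pair gria1 differed most plainly: gria1a stood at -0.48 and gria1b at -0.06 in PFOS70 against PFOS10, with intervals of -0.69 to -0.27 and -0.44 to 0.33 that overlap. The difference between copies was not tested.

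Genes that work with the receptors gave a like count. Of a list of 57 auxiliary, scaffold and co-agonist genes, 47 were tested. Of these, 17 fell and 0 rose in POP10 against PFOS10, with a median of -0.27 against 0.04 for all genes. In PFOS70 against PFOS10, 15 fell and 0 rose, with a median of -0.27 against 0.05. Over all genes 11.6% were called lower in the former contrast and 10.8% in the latter. Examples are shisa9a, an AMPA receptor auxiliary gene, which fell by 0.54 in PFOS70 against PFOS10 (limma adjusted p = 0.000762), shisa7b, which fell by 0.56 (adjusted p = 0.00202), and the AMPA receptor scaffold grip2a, which fell by 0.53 (adjusted p = 0.00256). Between POP10 and PFOS10, shisa7b fell by 0.61 (adjusted p = 0.00174), and nptxrb, a pentraxin receptor gene at AMPA synapses, fell by 0.68 (adjusted p = 0.00259). In the test of the level effects, 4 of these 47 passed, all higher: grip2a, homer1b, shisa7b and shisa9a. In that test 2.64% of all genes were called higher.

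Of 24 tested genes of glutamate supply and uptake, 9 rose and 3 fell in PFOS70 against PFOS10, where 23.6% of all genes were called higher and 10.8% lower. In POP10 against PFOS10, 8 rose and 1 fell, against 19.8% and 11.6% of all genes. The share that fell in PFOS70 was thus close to that of all genes. Those that rose include gls2a, a glutaminase of the liver type in mammals, by 2.01 in PFOS70 against PFOS10 (adjusted p = 0.000022). The glutamate dehydrogenase gene glud1b rose by 0.80 (adjusted p = 0.000074) and the glial uptake transporter gene slc1a3a by 0.58 (adjusted p = 0.000139). The 3 that fell were the uptake transporters slc1a8a, slc1a7b and slc1a7a. In PFOS10 against Control 5 of the 24 fell and 0 rose, and gls2a fell by 1.66 (adjusted p = 0.00106). Over all genes 8.25% were called there in either direction, 1344 genes lower and 247 higher. Calls over all genes thus also ran mainly downward at the deposited scaling. They did so with quantile normalization (533 lower, 253 higher), but not with equal medians (1087 lower, 1132 higher). Supply genes such as gls2a are also expressed outside the nervous system, and whole larvae do not separate these sources.

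Marker genes of several cell types moved with the receptor calls. Of 18 neuron markers, 14 fell and 0 rose in POP10 against PFOS10. In PFOS70 against PFOS10, 12 fell and 2 rose. Over all genes, 11.6% were called lower and 19.8% higher in POP10 against PFOS10. In PFOS70 against PFOS10 these shares were 10.8% and 23.6%. Retinal bipolar cell markers fell in 5 of 7 cases in each contrast, photoreceptor markers in 5 and 7 of 12. Glial markers fell in 2 of 8 and 3 of 8, with 1 rise in the latter. The summed level of the bipolar markers was 915 to 1142 RPM in PFOS10, 634 to 793 in PFOS70 and 757 to 829 in POP10, without overlap between PFOS10 and either group. That of the photoreceptor markers was 21913 to 28995 in PFOS10 and 17202 to 21477 in PFOS70, without overlap, and 17445 to 24907 in POP10, which overlaps PFOS10.

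Hepatocyte markers went the other way. All 8 rose in POP10 and in PFOS70 against PFOS10, and 6 of 8 fell in PFOS10 against Control. Their summed level was 512 to 2266 RPM in PFOS10, 3922 to 7391 in PFOS70, 2737 to 4218 in POP10, 2201 to 4451 in POP70 and 1826 to 6395 in Control. Of 9 skeletal muscle markers, 4 rose in PFOS70 and 2 in POP10 against PFOS10, where 23.6% and 19.8% of all genes were called higher. The share in POP10 was thus close to that of all genes. In either contrast 0 of the muscle markers fell. In PFOS10 against Control 1 of them fell, where 8.25% of all genes were called in either direction. Their summed level was 43037 to 63672 RPM in PFOS10, a range that holds those of the other 4 groups. No marker of these lists was at 0 in all libraries of a group. Their part in the receptor and transporter results was not tested. The fall of grm6b stands beside that of the bipolar cell gene vsx1 (-0.77 in PFOS70 against PFOS10, adjusted p = 0.00005).

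**Figure D4:**
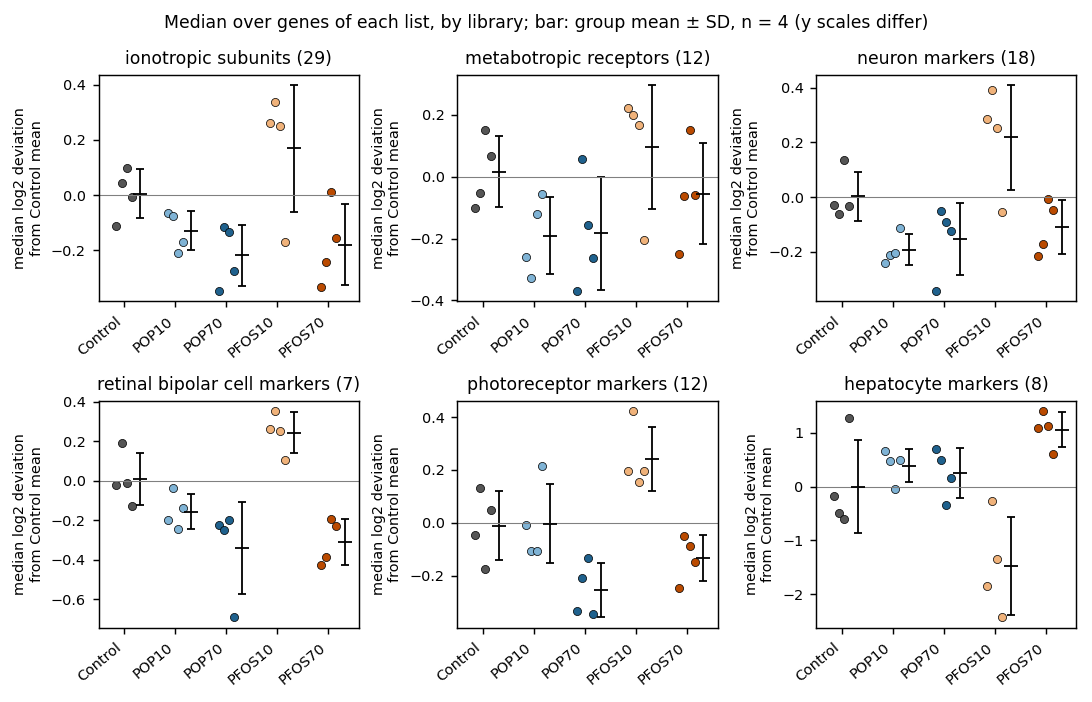
Median deviation of the genes of each list from the Control mean (log2 scale, y ranges differ) in the 20 libraries, with points for libraries and bars for the group mean ± SD (n = 4). In PFOS10 replicate 4 the ionotropic median lies at -0.17 and the metabotropic at -0.20, while bipolar cell and photoreceptor medians stay above 0 in all 4 PFOS10 libraries.

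The plot of list medians by library places the family beside its markers. In PFOS10 replicate 4 the neuron marker median was -0.06, the photoreceptor median 0.20, the bipolar cell median 0.10 and the hepatocyte median -2.43. The skeletal muscle median, which is not plotted, was 0.25 in that library and -0.38, -0.30 and -0.27 in PFOS10 replicates 1, 2 and 3, opposite in sign to the ionotropic and metabotropic medians in each of the 4 libraries. In PFOS10 replicate 2 the ionotropic median was highest, at 0.34, and the hepatocyte median was closest to Control, at -0.28. In POP70 all 4 libraries had ionotropic medians below 0, at -0.35 to -0.12. In POP10 they lay at -0.21 to -0.06, also all below 0. The Control libraries themselves lay at -0.112 to 0.097. POP10 overlapped with that range, and the highest POP70 library, at -0.116, lay just below it.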

How the data were processed

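RNA sequencing of whole larvae gave 20 libraries, 4 per group. The single deposited table has 48838 transcripts, and the authors' values are on a log2 scale. They match log2 RPM, with 0 reads set to 0.9 reads: divided by the worth of 1 read, 100% of low values were whole within 0.05 reads. Columns sum to 3126704 to 3390337 RPM, and the reason is not stated in the sources. Per the submitters' processing notes the tools were Trim Galore 0.4.5, STAR 2.5.4b, DESeq2 and R 3.5.0 with the build GRCz11, with no role stated.

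The gene symbol is the transcript name less its trailing number, and the transcript of highest mean stood for each gene. Genes at 0 log2 RPM or more in at least 4 libraries were tested, with no further pseudocount. Differences were fitted with limma 3.58.1 in R 4.3.3 (group as the only term, all 20 libraries, mean-variance trend, two-sided), adjusted by Benjamini-Hochberg over 19289 genes within each of 9 comparisons, at 0.05. The method was tested on simulated data. Depths give the precision of reads, not of molecules. Alternatives were other scalings, filters, transcripts, weights and fits, and each library left out.

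Named are the members that passed in any comparison with their copies, those of smallest p in each direction, the transporters and up to 3 genes of each list. Not all of these are printed for every comparison. Genes whose groups do not overlap and those in the counts of 5 or fewer are named in addition. The members and all gene lists were chosen with earlier results of these data known. Replicate numbers did not pair the samples. No sequences are given. 1 member and 1 marker gene enter the counts but are not reported here.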

Additional observations from a re-analysis of the deposited data

Results flagged for a closer look

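In groups of 4, a library is named here when its distance to the nearest other library took a larger share of its group's range than Dixon's 95% critical value. Of 240 gene and group combinations, 20 did so, and chance gives about 12. PFOS10 replicate 4 accounts for 5, Control replicate 3 and POP70 replicate 1 for 3 each. Values are log2 RPM. In PFOS10 replicate 4, grin1b was 9.29 (others 9.84 to 9.95), grm1a 6.11 (6.37 to 6.41), grm5a 4.68 (5.09 to 5.11), grm5b 2.32 (3.02 to 3.15) and grm2b 6.14 (6.74 to 6.80), all low. In PFOS10 replicate 1, grin3bb was high at 3.24. In Control replicate 3, gria1a was 7.10 (others 6.73 to 6.75), grid1a 4.97 (4.62 to 4.66) and grik4 5.11 (4.77 to 4.80), all high. In Control replicate 1, grin2cb was low at 3.59, and in Control replicate 2, slc17a7a was high at 6.36.

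In POP70 replicate 1, grin2ca was 3.80, grid2ipa 3.06 and grik5 4.66, all low. In POP70 replicate 4, grik1b was 4.01 and slc17a7a 5.23, also low. In PFOS70 replicate 3, grik1b was high at 5.06. In POP10, grid1b was low at 3.72 in replicate 3, slc17a6b low at 7.70 in replicate 2 and slc17a7b high at 5.38 in replicate 1.

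Differences between the level effects of the mixture and of PFOS alone passed the limma test for 4 genes: slc17a8 (-2.04), gria4a (0.79), GRIK2 (0.69) and gria1a (0.53). Each rests on the PFOS10 libraries, which stood apart from the rest over all genes.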

How the results depend on the processing

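In the comparisons that gave 0 calls, every alternative also gave 0, each library left out included. Counts of members called that moved by over 1.5 times are as follows. PFOS10 against Control, 2 calls, gave 1 with quantile normalization, 6 with equal medians, 8 with array weights, 0 with only the groups compared and 1 with voom. POP10 against PFOS10, 19 calls, gave 32 with equal medians and 31 with array weights. PFOS70 against PFOS10, 15 calls, gave 23, 32 and 28 with quantile normalization, equal medians and array weights. The difference of level effects, 4 calls, gave 9, 14 and 13 with the same. The cause was not tested. With each library left out in turn the counts ran from 0 to 6, 12 to 33, 9 to 27 and 4 to 11. With every transcript tested, an alternative chosen after seeing the data, they were 2, 21, 16 and 6. Calls over all 19289 genes moved as well, given in the same order of comparisons. At the deposited scaling they were 1591, 6051, 6634 and 3061. With quantile normalization they were 786, 5604, 6937 and 2407, and with equal medians 2219, 7218, 8399 and 4303. For the other alternatives, the replicate block below included, totals over all genes are not given. Those counts of members show no trait of the family.

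Replicate numbers did not pair the samples, with correlations of same-numbered libraries of -0.22 to 0.25. With the number as a replicate block the counts of members called were 3, 22, 21 and 8 in those comparisons and 0 in the others.

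Shifting libraries to equal medians moved the median of all genes in PFOS70 against PFOS10 from 0.05 to -0.10, and the family's median less that median stayed at -0.34. In that contrast 68.7% of all calls were higher, against 44.3% with quantile normalization and 41.3% with equal medians. In POP10 against PFOS10 the shares were 63.0%, 48% and 41.8%, in PFOS10 against Control 15.5%, 32.2% and 51.0%, and in the difference of level effects 16.7%, 41.8% and 53.9%.

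Direction turned for values that were never called. In POP10 against Control, grin3bb was -0.028 without Control replicate 3 (0.245 at most with a library left out). There slc17a7b was -0.011, -0.034 and -0.041 without Control replicate 1, Control replicate 3 and POP10 replicate 1 (0.082 at most). In POP10 against PFOS10, grin2db was -0.076 with quantile normalization, -0.022 with equal medians and -0.084 without PFOS10 replicate 4 (0.181 at most). For grm2a the same alternatives gave -0.0036, -0.049 and -0.0060 (0.101 at most). Of the calls, 11 of 19 in POP10 against PFOS10, 8 of 15 in PFOS70 against PFOS10, 4 of 4 in the difference of level effects and 0 of 2 in PFOS10 against Control passed every alternative.

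With 4 libraries per group the median SE was 0.14 on the log2 scale, and slc17a8 rests on 8 to 50 reads per library.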
